A study of Homo sapiens with 12 samples.

Results

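The 9 genes described here, TOE1, WDR73, PUSL1, ATAD3A, ATAD3B, TMEM201, CHAC2, GPCPD1 and PIGW, were chosen by their measured RNA level, which was lower after 24 h in 1% oxygen than at 0 h in HCT116 cells. They are 9 of the 56537 gene names that carry at least 1 transcript model in the deposited table matching an annotated transcript (class code =) or sharing a splice junction with one (class code j). A total of 16680 of these names passed a filter on low values (a level above 0.5 in at least 3 libraries), and all 9 genes did. The level of a gene is the sum, over these models, of FPKM values, in which fragments are scaled to the length of the transcript and to each 1000000 fragments mapped. The 9 genes had 92 such models, of which 45 passed the same filter on their own. HCT116 cells are a long-established line from a human colorectal carcinoma. Cells at 0 h were kept in 21% oxygen, and the other groups were held in 1% oxygen for 1, 2 or 24 h, with 3 libraries of polyadenylated, strand-specific RNA in each of the 4 groups and 12 libraries in all. Every group carried the same genotype and medium. The paper's supplement calls the 3 replicates biological, but neither it nor the labels say whether they were separate cultures. Errors and p-values therefore measure the spread between these libraries. The labels start hypoxia at a fixed time after plating and do not say when the 0 h cells were collected, so time in culture and time in hypoxia cannot be told apart at 24 h.

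The values at 0 h and 24 h chose the genes, so the 24 h changes below are given as a description with standard errors and no p. Changes at 1 h and 2 h share the 0 h libraries with that choice and are given in the same way. The comparison of 2 h with 1 h uses means that leave out the 0 h and 24 h libraries, and it alone is read as a test of these genes. It is not fully separate from the choice. Its standard errors and p-values use a spread pooled over all 12 libraries, and the genes were chosen with earlier results of these data known. Counts of calls at the other times are given as descriptions beside the share of all genes called.

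The libraries carried RNA of most, but not all, of the genes listed beforehand as markers of colorectal epithelium. EPCAM lay between 213 and 354 FPKM, KRT8 between 786 and 1191 and KRT18 between 449 and 756 in the 12 libraries, while the intestinal factor CDX2 lay between 5.64 and 9.44. CDH1, the cadherin of epithelial junctions, had 7.42 ± 0.73 FPKM before hypoxia and 26.3 ± 1.72 after 24 h, and KRT19 had 490 ± 52.2 and 971 ± 50.6 (SD, n = 3). VIL1 and LGALS4, also on that list and markers of differentiated enterocytes, stayed at or below 0.048 and 0.424 FPKM. PTPRC, PECAM1, COL1A2 and DCN, markers of leukocytes, endothelium and fibroblasts, were at or below 0.0315 FPKM, and COL1A1 had 1.92 ± 0.21 FPKM before hypoxia and 6.87 ± 1.67 FPKM after 24 h (SD, n = 3). All 6 genes of a short check list of known hypoxia targets were called higher at 24 h, among them NDRG1 at 24.1 ± 6.18 FPKM before and 984 ± 153 after (SD, n = 3). Transcripts under 300 bases held between 57.0% and 87.6% of the summed FPKM of a library, and the summed FPKM ranged from 1534760 to 5258190. Read depth is not given by FPKM values, so no counting interval accompanies them. In bulk RNA, fewer cells expressing a gene and less RNA per cell cannot be told apart.

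Cells that sense low oxygen stabilise the hypoxia-inducible factors, which switch on genes for glycolysis, survival and vessel growth. Many other transcripts decline with longer exposure, including those for mitochondrial and RNA-processing proteins that growing cells use heavily. The 9 genes belong to that declining side and serve several separate processes. TOE1, WDR73 and PUSL1 act on RNA: TOE1 is a 3′ exonuclease of Cajal bodies that trims small nuclear RNAs, WDR73 is a WD-repeat protein that binds subunits of the Integrator RNA-cleavage complex, and PUSL1 belongs to the pseudouridine synthases, which modify uridines in RNA. ATAD3A and ATAD3B are AAA ATPases of the mitochondrial inner membrane found near mitochondrial DNA. TMEM201, also called SAMP1, is a protein of the inner nuclear membrane. CHAC2 breaks down glutathione, GPCPD1 releases choline from glycerophosphocholine, and PIGW acylates inositol during the assembly of glycosylphosphatidylinositol (GPI) anchors in the endoplasmic reticulum.

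On GRCh37, the build named in the processing notes, 5 of the genes lie on chromosome 1. PUSL1 is at chr1:1243977-1247057, ATAD3B at chr1:1407145-1433228, ATAD3A at chr1:1447542-1470065, TMEM201 at chr1:9648969-9674935 and TOE1 at chr1:45805842-45809645, each on the plus strand. CHAC2 is at chr2:53994941-54002333 on the plus strand, WDR73 at chr15:85182516-85197514 on the minus strand, PIGW at chr17:34890814-34895152 on the plus strand and GPCPD1 at chr20:5525085-5591652 on the minus strand.

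Promoter windows from RefSeq, on GRCh38.p14, were at hand for 5 of the 9 genes (TOE1, CHAC2, ATAD3A, TMEM201 and PIGW), and the bases before the start are given for the 3 whose window held a stretch of 30 bases or more outside annotated exons. They are given so that the letters in front of genes that were low together at 24 h can be compared. Capitals mark GGGCGG (the GC box) and CCAAT on either strand. CHAC2 is shown at chr2:53767533-53767782, ATAD3A at chr1:1512474-1512529 and TMEM201 at chr1:9588661-9588910, all on the plus strand and each ending at the base before an annotated start. RefSeq lists another start of CHAC2 a few bases downstream, and the 250 bases in front of that start, chr2:53767554-53767803, hold neither motif.
CHAC2: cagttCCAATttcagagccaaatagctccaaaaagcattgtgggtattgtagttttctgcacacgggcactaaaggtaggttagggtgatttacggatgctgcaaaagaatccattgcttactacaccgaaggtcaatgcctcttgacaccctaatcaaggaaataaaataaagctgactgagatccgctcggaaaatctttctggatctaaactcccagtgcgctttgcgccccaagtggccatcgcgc
ATAD3A: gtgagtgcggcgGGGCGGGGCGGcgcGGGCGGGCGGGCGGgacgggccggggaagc
TMEM201: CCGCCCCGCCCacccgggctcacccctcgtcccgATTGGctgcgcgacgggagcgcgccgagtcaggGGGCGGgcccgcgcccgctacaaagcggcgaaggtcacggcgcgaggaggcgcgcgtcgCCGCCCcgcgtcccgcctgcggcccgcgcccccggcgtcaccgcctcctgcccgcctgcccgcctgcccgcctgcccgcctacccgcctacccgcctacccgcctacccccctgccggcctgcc

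The CHAC2 stretch was 46% G or C, against 89.3% for ATAD3A and 82% for TMEM201. Over the whole windows, which also cover the first transcribed bases, GGGCGG was found in 4 of the 5 genes (not CHAC2) and in 45% of 35116 RefSeq windows of the same length, searched on both strands. CCAAT was found in 3 of 5 (TOE1, CHAC2 and TMEM201) and in 34.6% of windows, the match of CHAC2 lying in the window of 1 of its 2 starts. Of the forms of the core that hypoxia-inducible factors bind, GCGTG was found in 4 of 5 (not CHAC2), against 36.5% of windows, and ACGTG in 1 of 5 (PIGW), against 21.4%. The E-box CACGTG, which contains ACGTG, was found in PIGW alone, against 7.26% of windows. The ETS motif CCGGAAG, the NRF1 core TGCGCA and the YY1 motif AAGATGG were found in 0 of 5, against 10.3%, 8.24% and 5.84% of windows. No searched motif was present in all 5 windows, and a match or its absence is a description of letters only.

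TOE1 had the lowest level at 24 h relative to 0 h and was also the gene whose level was lowest, relative to 0 h, at 2 h. At 0 h its level was 18.9, 14.5 and 16.95 FPKM in replicates 1, 2 and 3. It was 12.02, 15.0 and 11.3 at 1 h, 9.09, 9.81 and 7.52 at 2 h, and 2.01, 1.27 and 1.44 at 24 h. The 2 h libraries all lay below every 0 h and 1 h library, and the 24 h libraries lay below every earlier one. The mean at 24 h was 10.7-fold lower than at 0 h (log2 fold change -3.07, SE 0.17, from limma on log2(FPKM + 0.5)).

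WDR73 showed the same order, with smaller steps on the log2 scale. Its level was 22.7, 23.2 and 20.8 FPKM at 0 h, 17.9, 20.1 and 17.02 at 1 h, 17.5, 17.1 and 12.2 at 2 h, and 5.57, 5.83 and 6.40 at 24 h. All 1 h and 2 h libraries were below all 0 h libraries, and the 1 h and 2 h groups overlapped. The log2 fold change at 24 h was -1.82 (SE 0.14).

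On the log2 scale, PUSL1 had the smallest 24 h difference of the 9 genes and the smallest standard error. Its level was 22.2, 21.8 and 22.2 FPKM at 0 h, 19.3, 21.7 and 18.7 at 1 h, 21.3, 21.7 and 19.2 at 2 h, and 9.54, 9.33 and 9.02 at 24 h. The 1 h and 2 h libraries lay just below the narrow 0 h range, while the 24 h libraries were far below all others. The 24 h mean was 42.1% of the 0 h mean (log2 fold change -1.20, SE 0.09).

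**Figure D1:**
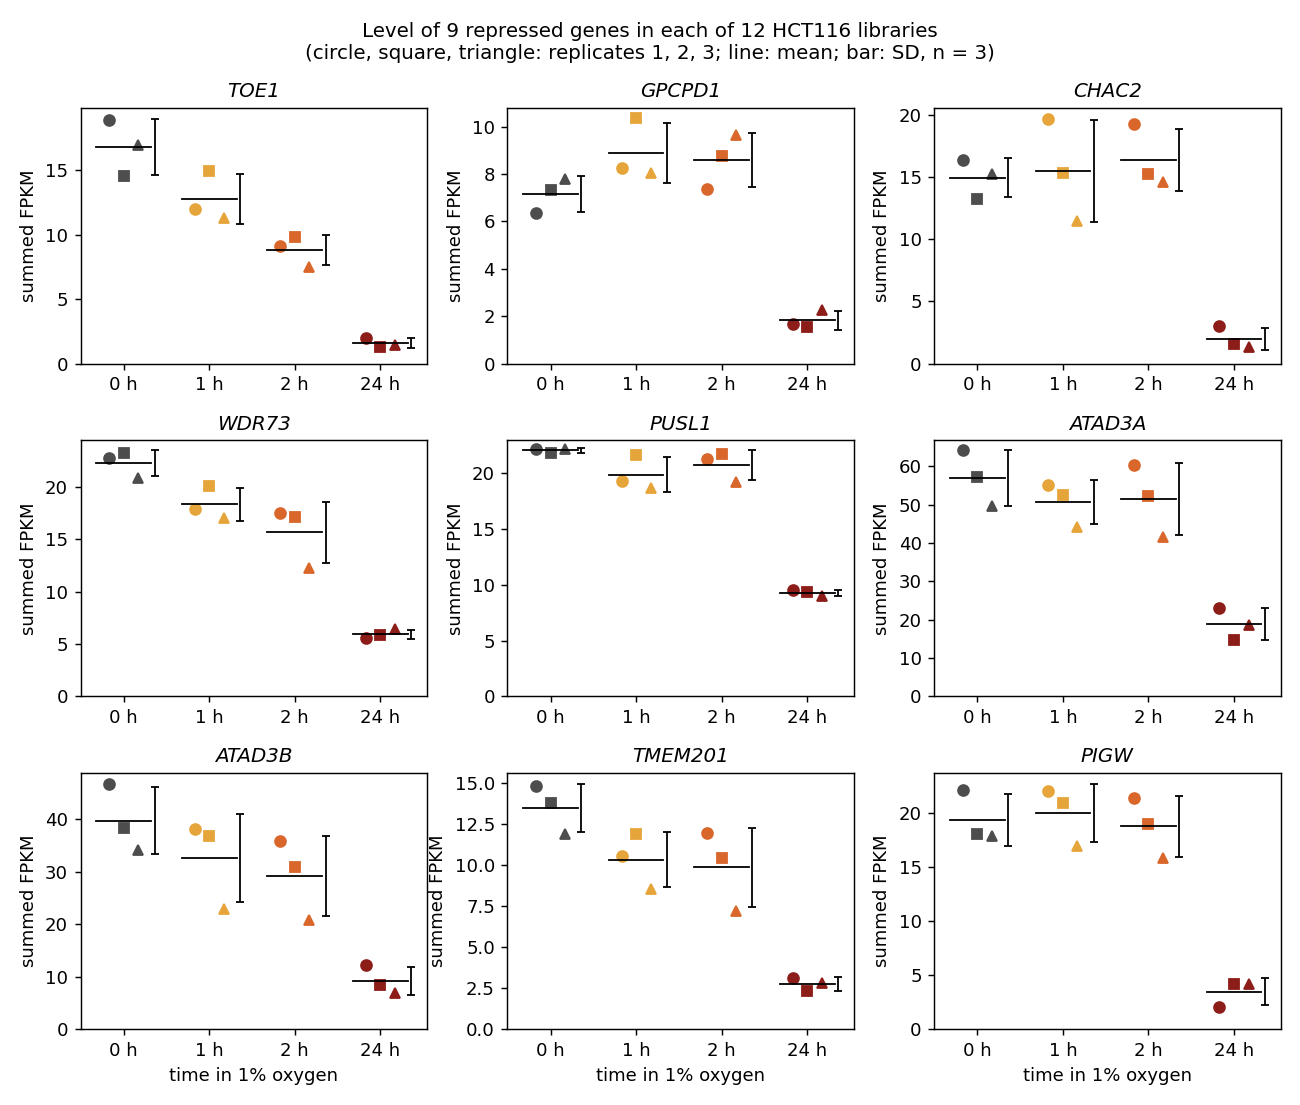
Summed FPKM (y axis, from 0) of each gene at 0, 1, 2 and 24 h in 1% oxygen, with 1 point per library, the mean as a line and the SD as a bar (n = 3). The 24 h libraries lie below every earlier library in all 9 panels, and TOE1 is already lower at 2 h, at 7.52 to 9.81 FPKM.

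ATAD3A and ATAD3B are neighbouring genes with very similar sequence, and had the highest levels per length of the 9 at 0 h. ATAD3A stood at 64.2, 57.2 and 49.6 FPKM at 0 h, at 55.2, 52.4 and 44.2 at 1 h, at 60.4, 52.2 and 41.7 at 2 h, and at 23.1, 14.7 and 18.7 at 24 h. ATAD3B stood at 46.7, 38.2 and 34.2 at 0 h, at 38.0, 36.8 and 22.98 at 1 h, at 35.8, 30.9 and 20.8 at 2 h, and at 12.2, 8.47 and 6.90 at 24 h. In both genes the early groups overlapped and replicate 3 was the lowest library of each of the 3 early groups. Within each of the 3 replicate numbers, ATAD3B was lower at 1 h than at 0 h and lower again at 2 h, and ATAD3A was lower at 1 h and at 2 h than at 0 h. The log2 fold change at 24 h was -1.59 (SE 0.18) for ATAD3A and -2.08 (SE 0.25) for ATAD3B. Of the 100-base windows of the main ATAD3A transcript, 15.4% also occurred in ATAD3B and 4.95% in the paralog ATAD3C. For ATAD3B, 6.5% of windows occurred in ATAD3A and 5.61% in ATAD3C. Part of the reads could therefore be assigned to either gene, which makes the separate levels uncertain. These shares of exact windows do not measure the size of that uncertainty. Of the other 7 genes, GPCPD1 shared 0.075% of its windows with another gene and the rest none.

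TMEM201 was at 14.8, 13.8 and 11.9 FPKM at 0 h, 10.6, 11.9 and 8.56 at 1 h, 11.95, 10.4 and 7.24 at 2 h, and 3.12, 2.31 and 2.82 at 24 h. The means at 1 h and 2 h were below the 0 h mean, although 1 library at 1 h and 1 at 2 h reached into the 0 h range. Within each replicate number the 1 h and the 2 h library were both below the 0 h library. The log2 fold change at 24 h was -2.11 (SE 0.19).

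The 3 genes of metabolism had means at 1 h and 2 h close to or above their 0 h means. CHAC2 was at 16.3, 13.3 and 15.2 FPKM at 0 h, 19.7, 15.3 and 11.5 at 1 h, 19.3, 15.3 and 14.6 at 2 h, and 2.99, 1.55 and 1.34 at 24 h. Its early groups overlapped, and its 24 h mean was 7.63-fold lower than the 0 h mean (log2 fold change -2.71, SE 0.24). PIGW was at 22.1, 18.05 and 17.9 at 0 h, 22.1, 20.9 and 16.9 at 1 h, 21.4, 19.0 and 15.9 at 2 h, and 2.03, 4.16 and 4.21 at 24 h. Its log2 fold change at 24 h was -2.37 (SE 0.22), with replicate 1 lowest at 24 h while it was the highest library of each early group.

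GPCPD1 had the lowest 0 h level of the 9 genes, at 6.34, 7.34 and 7.80 FPKM. It was at 8.27, 10.4 and 8.03 at 1 h, 7.39, 8.75 and 9.63 at 2 h, and 1.65, 1.55 and 2.28 at 24 h. All 1 h libraries were above all 0 h libraries, and all 24 h libraries were below every other. The log2 fold change was 0.29 (SE 0.16) at 1 h and -1.73 (SE 0.16) at 24 h. Leaving out 1 library gave 0.18 to 0.35 at 1 h. Rescaled to the same sum over all transcripts, the 1 h value was -0.28, against a median of -0.56 over all genes. The 24 h value was -2.92 over the models that passed the filter on their own and -2.55 over exact matches.

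Every gene was called lower at 24 h (9 of 9, where a call needs a difference of more than 2-fold and an adjusted p below 0.01, against 9.51% of the 16680 genes tested), and in 9 of 9 the 24 h group lay wholly below the 0 h group, which held for 32.8% of all genes. Both counts follow from how the genes were chosen. The median log2 fold change of the 9 was -2.08, against -0.05 over all genes tested. Among the 10128 genes with at least 5 FPKM at 0 h, ordered from the lowest 24 h log2 fold change, TOE1 ranked 5, CHAC2 9, PIGW 27, TMEM201 67, ATAD3B 75, WDR73 166, GPCPD1 221, ATAD3A 324 and PUSL1 843. The 9 genes are therefore repressed genes of very different rank rather than the most repressed of all, since 834 other genes lay at or below PUSL1. The 5 others with the lowest values were RNY1 at -4.69 (SE 2.07, adjusted p 0.073 by limma, not called), ZNF888 at -3.65, VPS9D1-AS1 at -3.37, RTEL1 at -3.33 and GPATCH4 at -2.99, of which the last 4 were called. Neighbours in this order often differed by less than their errors: ATAD3B at -2.08 and TMEM201 at -2.11 had SEs of 0.25 and 0.19.

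**Figure D2:**
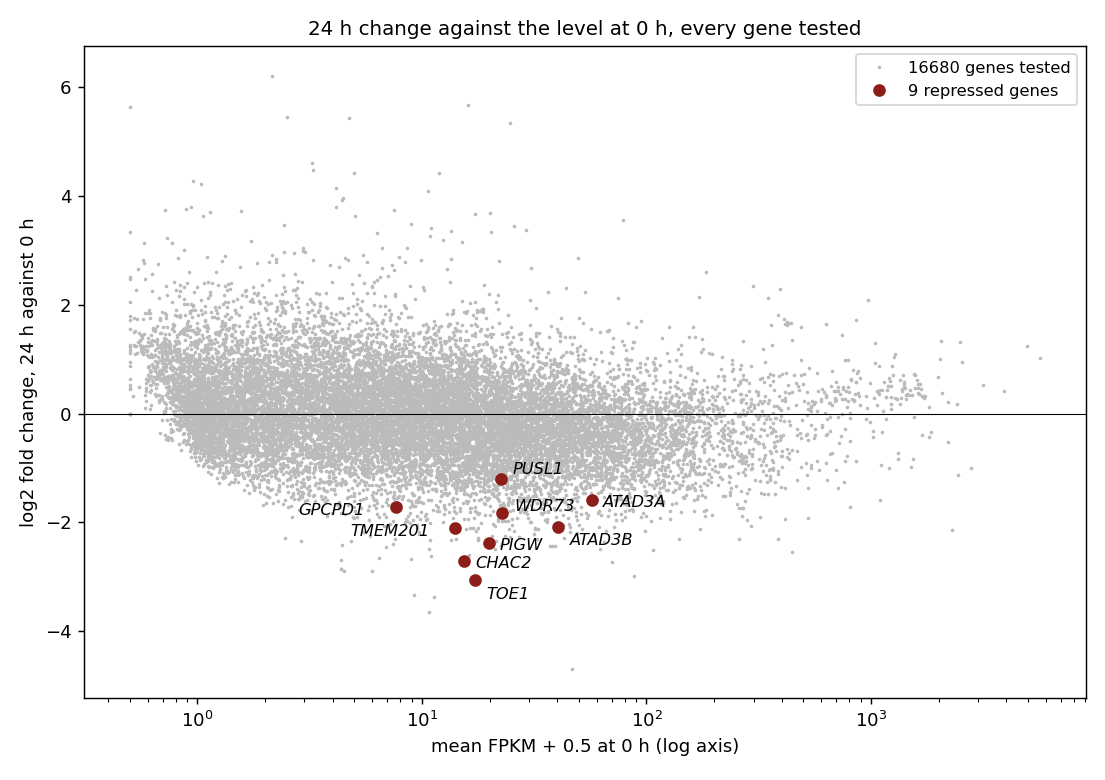
Log2 fold change at 24 h against 0 h (y axis) of the 16680 genes tested, plotted on their mean FPKM + 0.5 at 0 h (log x axis), with the 9 genes in dark red. TOE1, at -3.07, and CHAC2, at -2.71, lie at the lower edge, whereas PUSL1, at -1.20, lies among many other genes.

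The 9 genes stood at different distances from their 24 h level after 2 h. The difference at 2 h was set against that at 24 h on FPKM means: TOE1 had 52.5% of its 24 h difference at 2 h, WDR73 40.6%, ATAD3B 34.6% and TMEM201 33.8%. The shares were 14.5% for ATAD3A, 10.3% for PUSL1 and 3.67% for PIGW, and they were negative for CHAC2 (-10.97%) and GPCPD1 (-26.9%), whose 2 h means lay above 0 h. On the log2 scale the 2 h values were -0.89 (SE 0.17) for TOE1, -0.51 (SE 0.14) for WDR73, -0.46 (SE 0.25) for ATAD3B, -0.46 (SE 0.19) for TMEM201, -0.15 (SE 0.18) for ATAD3A, -0.09 (SE 0.09) for PUSL1, -0.05 (SE 0.22) for PIGW, 0.12 (SE 0.24) for CHAC2 and 0.24 (SE 0.16) for GPCPD1. With the replicate number as a block, the SEs at 2 h were 0.16 for TOE1, 0.12 for WDR73, 0.11 for ATAD3B and 0.15 for TMEM201. They were 0.12 for ATAD3A, 0.08 for PUSL1, 0.23 for PIGW, 0.15 for CHAC2 and 0.14 for GPCPD1. Without the third 2 h library the log2 values were -0.24 for ATAD3B, -0.26 for TMEM201, -0.35 for WDR73 and -0.79 for TOE1. In the same fit they were -0.013 for ATAD3A, -0.037 for PUSL1, 0.065 for PIGW, 0.16 for GPCPD1 and 0.20 for CHAC2. Without the first 2 h library CHAC2 was at 0.0024. The PIGW value was also above 0, at 0.051, without the first 0 h library. The third 2 h library was the lowest at 2 h in 8 of the 9 genes, and 85.9% of its summed FPKM lay in transcripts under 300 bases, against 85.2% and 74.5% in the other 2 h libraries. Rescaling every library to the same sum over all transcripts moved the median of all genes from -0.02 to -0.94 at 2 h, and on that scale CHAC2 was at -0.89 and GPCPD1 at -0.70. The part of library composition in the unscaled values was not tested.

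**Figure D3:**
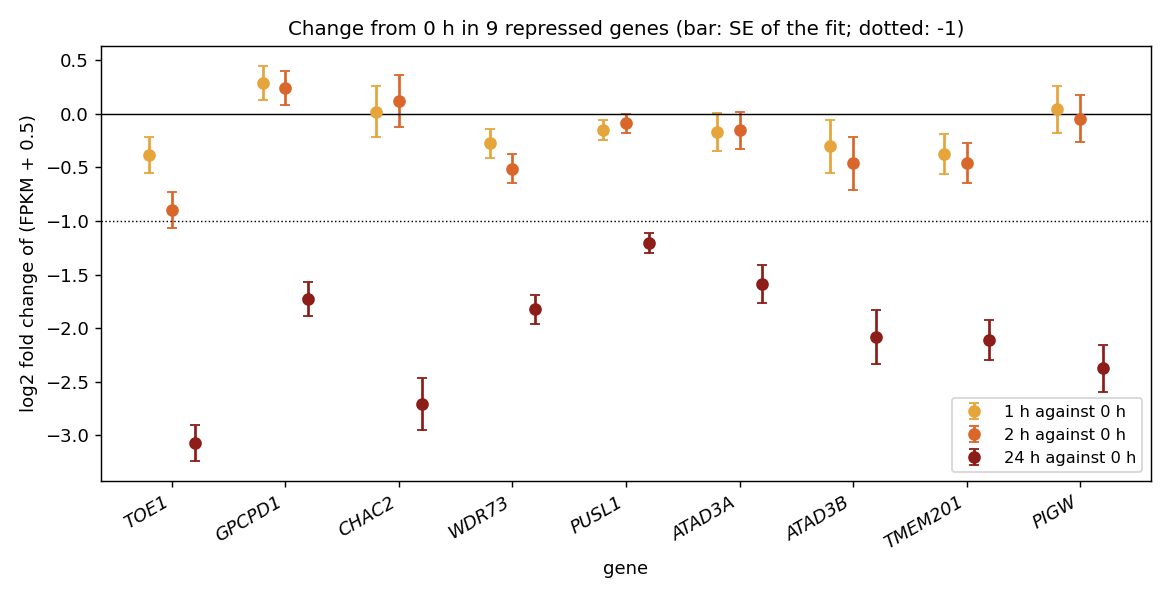
Log2 fold change of FPKM + 0.5 against 0 h (y axis) of each gene (x axis) at 1, 2 and 24 h, with the SE of the fit as a bar and a dotted line at -1. TOE1, WDR73, ATAD3B and TMEM201 have a lower value at each later time, at -0.89, -0.51, -0.46 and -0.46 at 2 h, while CHAC2, PIGW and GPCPD1 lie near or above 0 at 1 h and 2 h.

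On the unscaled values none of the 9 genes was called lower at 1 h or 2 h. The share of all genes called lower was 0% at 1 h and 0% at 2 h; limma called 1 gene higher at 1 h (RNVU1-16, a variant U1 small nuclear RNA) and 3 at 2 h (MAFF, PIM1 and ERRFI1), and 769 and 2547 genes had an unadjusted p under 0.05. Rescaled to the same sum over all transcripts, which moved the median of all genes to -0.56 at 1 h and -0.94 at 2 h, limma called 19 of 14531 genes lower at 1 h (0.131%) and 526 at 2 h (3.62%), against 9 and 14 higher. On that scale 0 of the 9 were called at 1 h and 3 of the 9 at 2 h, TOE1 at -1.80, WDR73 at -1.50 and TMEM201 at -1.39. With transcripts under 300 bases left out of the sum, the median of all genes at 2 h was -0.03. Then 0 of the 9 were called at 1 h and 0 at 2 h, where 0 and 1 of all genes were called lower. At 1 h, 2 of the 9 (WDR73 and PUSL1) lay wholly below the 0 h group, against 7.33% of all genes. At 2 h, 3 of the 9 (TOE1, WDR73 and PUSL1) did so, against 13.1%. These counts share the 0 h libraries with the choice of the genes.

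Between 1 h and 2 h none of the genes was called (0 of 9, against 0.006% of genes called lower, which is 1 gene, RNVU1-16). A fit on the 6 libraries of this contrast alone also called 0 of the 9, and 0 genes in all. TOE1 had a log2 fold change of -0.51 (SE 0.17, limma adjusted p = 1), and its groups did not overlap, which held for 4.62% of all genes in this direction. It was lower in 3 of 3 libraries at 2 h and was the only 1 of the 9 with an unadjusted p under 0.05, which 567 genes had in all. WDR73 followed at -0.24 (SE 0.14), or -0.077 without the third 2 h library, and ATAD3B at -0.16 (SE 0.25). The remaining 6 lay between -0.09 and 0.10, with adjusted p values of 1 in each case. Same-numbered libraries of these groups deviated together, and with the replicate number as a block 0 genes were called, with 841 at an unadjusted p under 0.05. In that fit the SE was 0.16 for TOE1, 0.12 for WDR73 and 0.11 for ATAD3B. TOE1 had a limma adjusted p of 0.7, and the other 8 genes had adjusted p values of 1. Within the replicate numbers TOE1, WDR73, ATAD3B and PIGW were lower at 2 h in 3 of 3 pairs and PUSL1 in 0 of 3. An adjusted p of 1 does not show that the levels at 1 h and 2 h were alike.

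The transcript models of each gene were examined next, since a gene can keep its reads and lose its coding form. Transcript names and types are those of GENCODE release 44 for the nearest reference transcript, in which noncoding covers retained-intron, nonsense-mediated decay and other forms with no defined coding sequence. Cufflinks divides reads among overlapping models, so single low values carry more error than the sums. For TOE1, CHAC2, PUSL1, ATAD3A, ATAD3B, TMEM201 and PIGW the model with the highest mean FPKM was the same at 0 h and 24 h. It differed for WDR73 and GPCPD1.

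The main coding model of WDR73 was assigned little or no FPKM at 24 h. The coding WDR73-202 of 1900 bases was at 9.18, 9.43 and 7.17 FPKM at 0 h, 9.30, 8.48 and 8.10 at 1 h, 7.91, 9.04 and 6.44 at 2 h, and 0, 0 and 0.661 at 24 h. Its 0 h group overlapped those at 1 h and 2 h, whereas every 1 h and 2 h sum of the gene lay below the 0 h sums. The noncoding WDR73-217, of 582 bases, was at 3.48, 5.05 and 2.69 FPKM at 0 h, and its mean was 2.51 ± 0.36 after 1 h, 2.95 ± 1.44 after 2 h and 0.39 ± 0.40 after 24 h (SD, n = 3). WDR73-201 of 1915 bases, for which no coding sequence is defined, was at 0.654, 0.0425 and 3.28 at 0 h and at 0.871, 2.12 and 1.57 at 24 h, and had the highest mean at 24 h. The second highest at 24 h was a variant of 7071 bases that shares junctions with the coding WDR73-202. It was at 0.000707 FPKM or less at 0 h and at 0.400, 1.01 and 0.891 at 24 h, with a share of 12.8% ± 5.16 at 24 h (SD, n = 3), and it did not pass the filter on low values. The noncoding share of WDR73 was 55.9% ± 4.21 before hypoxia, 47.4% ± 7.87 after 1 h, 41.2% ± 4.82 after 2 h and 83.8% ± 8.57 after 24 h (SD, n = 3). The 24 h libraries, at 75.8% to 92.8%, lay above all earlier ones. In GENCODE, the first exons of WDR73-202 and WDR73-201 end 7 bases apart, and the stretch is shown as 1 annotated difference between a coding and a noncoding form. The deposited models, of 1900 and 1915 bases, differ in length by more than these 7 bases. The stretch is chr15:85197447-85197476 on GRCh37, minus strand, and runs from the end of exon 1 into intron 1. Capitals mark the bases that are exonic only in WDR73-201, and the deposited table gives lengths but no exons for these models.
WDR73: atccttgcgcttGTAAATCgtacggggctg

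The model of GPCPD1 with the highest mean at 24 h was not the one that led at 0 h. The coding GPCPD1-201 was at 2.89, 2.52 and 2.73 FPKM at 0 h, 4.02, 4.01 and 4.33 at 1 h, 2.05, 3.01 and 3.23 at 2 h, and 0.110, 0 and 0.485 at 24 h. All 1 h libraries exceeded all libraries of the other times. The nonsense-mediated decay form GPCPD1-206, of 819 bases, was at 1.98, 2.56 and 2.42 at 0 h and at 0.360, 0.000261 and 0 at 24 h. A model of 5238 bases that shares junctions with GPCPD1-201 took the highest mean share at 24 h, 22.7% ± 14.8 against 0% at 0 h (SD, n = 3), at no more than 0.606 FPKM. With a summed level of 1.55 to 2.28 FPKM, these shares at 24 h were spread widely between libraries.

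The leading coding model of TMEM201 held a smaller mean share at 24 h. TMEM201-201 was at 7.61, 7.64 and 5.77 FPKM at 0 h and at 1.19, 0.702 and 0.787 at 24 h, and its share was 51.7% ± 3.44 and 32.2% ± 5.42 (SD, n = 3). It had the highest value of the gene in 3 of 3 libraries at 0 h, 1 h and 2 h and in 0 of 3 at 24 h, when models of TMEM201-202 led. The highest of these at 24 h, a variant of 4074 bases that shares junctions with TMEM201-202, was at 4.11 ± 1.03 FPKM at 0 h and 0.88 ± 0.80 at 24 h, with a log2 fold change of -1.94 (SE 0.44). Its share was 30.7% ± 8.51 and 29.5% ± 26.2 (SD, n = 3). The exact model of TMEM201-202, of 3776 bases, was at 0.88 ± 1.24 FPKM at 0 h and 0.60 ± 0.33 at 24 h, with shares of 6.31% ± 8.98 and 23.4% ± 16.4 (SD, n = 3) and a log2 fold change of 0.02 (SE 0.59). The gene summed to 2.31 to 3.12 FPKM at 24 h, and the 24 h shares of the TMEM201-202 models were spread widely between libraries.

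TOE1 was spread over coding and noncoding models throughout. The coding TOE1-201 was at 8.04, 6.47 and 4.94 FPKM at 0 h, 4.72, 5.83 and 3.68 at 1 h, 2.41, 1.95 and 3.33 at 2 h, and 0.605, 0.629 and 0.847 at 24 h. At 2 h all its libraries were below all those at 1 h. The noncoding TOE1-205 was at 4.01, 5.09 and 4.59 at 0 h and 2.86, 5.31 and 2.42 at 2 h, so its early groups overlapped, and at 24 h it was at 0.540, 0.291 and 0. The noncoding share of TOE1 was 47.1% ± 6.99 before hypoxia and 40.1% ± 15.3 after 24 h (SD, n = 3), with overlapping ranges.

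PUSL1, CHAC2 and ATAD3A kept 1 dominant coding model. PUSL1-201 was at 15.7, 15.6 and 15.4 FPKM at 0 h and 7.78, 7.14 and 7.03 at 24 h. CHAC2-201 was at 14.8, 12.1 and 13.8 at 0 h and 2.72, 1.34 and 1.01 at 24 h. ATAD3A-203 was at 61.1, 51.2 and 46.1 at 0 h and 18.4, 12.6 and 16.4 at 24 h. Its share was 84.5% ± 4.40 at 24 h (SD, n = 3), with ATAD3A-207 at 3.42 FPKM in the first 24 h library and near 0 in the others.

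ATAD3B-201 was at 35.1, 29.9 and 25.4 FPKM at 0 h and 7.09, 5.00 and 4.83 at 24 h. The short ATAD3B-202, of 414 bases and without a defined coding sequence, had means of 5.80 ± 1.84 FPKM before hypoxia, 3.22 ± 0.63 after 1 h, 1.68 ± 1.37 after 2 h and 1.74 ± 1.46 after 24 h (SD, n = 3). Every library of ATAD3B-202 after 0 h lay below the 0 h range, unlike the gene's main model, whose early groups overlapped. The transcripts of PIGW had no match in GENCODE release 44 and so no type. The highest at 0 h, ENST00000328396, was at 10.3, 7.22 and 7.71 FPKM at 0 h and 0.701, 0.818 and 2.11 at 24 h, and it led in 1 of 3 libraries at 24 h.

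Between 1 h and 2 h, 0 of the 45 models were called lower by limma, against 0% of 62162 transcripts tested. Of those 62162, 2469 had an unadjusted p under 0.05, 2 of them among the 45.

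**Figure D4:**
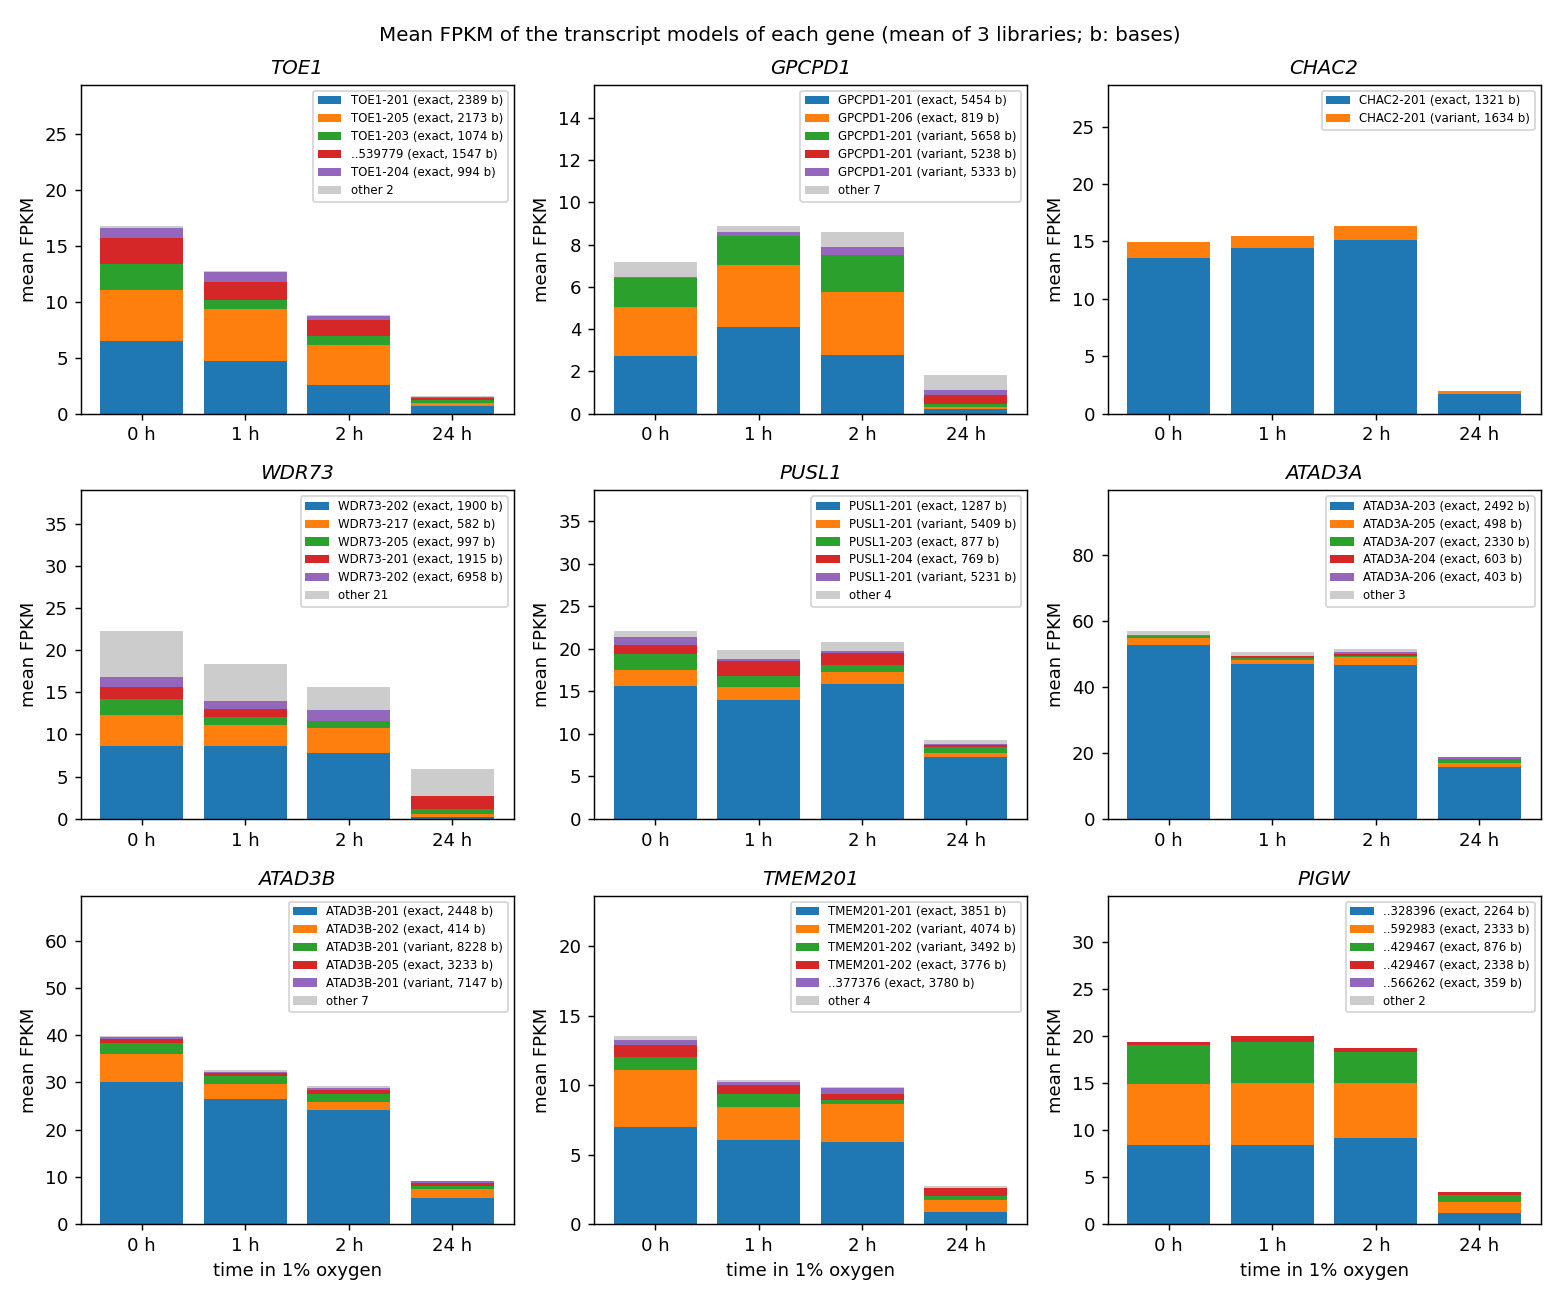
Mean FPKM of 3 libraries (y axis) of the 5 highest transcript models of each gene, stacked, with the remaining models in grey, at 0, 1, 2 and 24 h; exact marks models that match an annotated transcript and variant those that share junctions. The blue WDR73-202 bar nearly vanishes at 24 h, from 8.59 to 0.22 FPKM, while PUSL1 and ATAD3A keep 1 dominant model.

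At 3 of the 9 genes an annotated gene starts within 1000 bases on the opposite strand, in the arrangement called a divergent promoter. MUTYH, a DNA glycosylase that removes adenine opposite oxidised guanine, starts 200 bases from TOE1 and was at 15.8 ± 0.76 FPKM at 0 h and 7.67 ± 1.2 at 24 h (SD, n = 3; log2 fold change -1.01, SE 0.13, adjusted p 5.7e-05 by limma), which was called. MYO19, a myosin of mitochondria, starts 119 bases from PIGW and was at 50.9 ± 1.55 and 29.6 ± 2.2 FPKM (log2 fold change -0.77, SE 0.13, limma adjusted p 0.00029), below the fold required for a call. ACAP3, a GTPase-activating protein for ARF, starts 667 bases from PUSL1 and was at 8.11 ± 1.21 and 6.71 ± 0.60 (log2 fold change -0.25, SE 0.13, limma adjusted p 0.14). Libraries were strand-specific, and the study's methods state that strand was specified to Cufflinks when transcript models were built. Overlapping reads of these pairs are separated as far as the deposited values used that setting.

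The companions of each gene in its pathway were taken from 7 lists, each read against the median of all genes, -0.05, and against the 9.51% of all genes called lower and 8.76% called higher at 24 h. Of the other pseudouridine synthases, 5 of 12 tested were called lower and 0 higher, with a median log2 fold change of -0.89. RPUSD1 (-1.65), PUS1 (-1.49), RPUSD2 (-1.45) and TRUB2 (-1.12) were the largest of these. In the list of mitochondrial nucleoid proteins, inner-membrane proteases and prohibitins, to which the ATAD3 genes belong, 6 of 17 were called lower and 0 higher (median -0.55), among them TFB2M (-1.26) and TFAM (-1.15), which start and package mitochondrial DNA transcription, SSBP1 (-1.23), which binds single-stranded mitochondrial DNA, and the helicase C10orf2 (-1.11). ATAD3C was at 1.61 ± 0.36 and 0.66 ± 0.17 FPKM (SD, n = 3; log2 fold change -0.86, limma adjusted p 0.0046, not called).

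Of the genes for GPI-anchor synthesis besides PIGW, 2 of 25 were called lower, no larger a share than among all genes, and 0 higher (median -0.33). They were PIGM (-1.60), a mannosyltransferase, and PIGK (-1.13), the protease of the transamidase. In glutathione synthesis and breakdown, 3 of 11 were called lower and 0 higher (median -0.37). They were the dipeptidase CNDP2 (-1.37), GCLM (-1.14), the modifier subunit of glutamate-cysteine ligase, and the aminopeptidase LAP3 (-1.05). CHAC1, the paralog of CHAC2, had a log2 fold change of -1.05 (SE 0.44, limma adjusted p 0.061) at 2.09 FPKM or less on average and was not called.

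Of the genes of glycerophosphocholine and choline metabolism other than GPCPD1, 3 of 14 were called higher and 1 lower, and the other 10 were not called (median 0.10). GDPD5 (1.38), another glycerophosphocholine phosphodiesterase, PNPLA6 (1.27), a lysophospholipase, and GDPD3 (1.04) were higher, and PCYT1A (-1.11), which makes CDP-choline, was lower. Among poly(A) exonucleases, small nuclear RNA maturation factors and Integrator subunits, the companions of TOE1 and WDR73, 0 of 23 were called lower and 2 higher (median -0.23), the deadenylase subunits PAN2 (1.51) and CNOT8 (1.18). In the inner nuclear membrane and lamina list, 3 of 17 were called lower, TOR1A (-1.61), TMPO (-1.16) and LMNB1 (-1.0), and 1 higher, SUN1 (1.14), with a median of -0.04. All values in these lists are log2 fold changes at 24 h against 0 h.

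The genes whose log2 levels over the 12 libraries were most like the mean standardised profile of the 9, among 14351 genes with a mean of at least 1 FPKM, were TRIP13 (Pearson r 0.999), DDX19A (0.998), MRPL20 (0.997), POLDIP2 (0.997) and RRP7A (0.997). Each of these 12 points shares its library with the 9 genes, and all of them include the large step at 24 h. How much of r that step sets was not tested. TRIP13, an ATPase of the spindle checkpoint, was at 46.3 ± 0.31 FPKM before hypoxia, 42.8 ± 4.67 after 1 h, 40.9 ± 3.26 after 2 h and 15.3 ± 0.58 after 24 h (SD, n = 3).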

How the data were processed

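Poly(A) RNA of HCT116 cells was sequenced as strand-specific paired reads. According to the study's methods and the processing notes, the authors called bases with CASAVA 1.8.2, aligned to hg19 (GRCh37) with MapSplice, assembled transcripts per sample with Cufflinks, merged them with Ensembl and deposited FPKM values per transcript. No scaling between libraries is named, and FPKM values carry no depth per library. The study tested genes with edgeR on counts, which the FPKM table does not give.

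FPKM was summed per gene name over class codes = and j. limma 3.58.1 in R 4.3.3 (lmFit and eBayes with trend, all 12 libraries, two-sided, Benjamini-Hochberg over all genes or transcripts tested) was run on log2(FPKM + 0.5), which understates changes of low genes. A call needed a difference of more than 2-fold and an adjusted p below 0.01. The labels state no pairing, but same-numbered libraries deviated from their group means together (r above 0.1 in 3 of 3 pairs) between 2 h and 0 h (r 0.13 to 0.36) and between 2 h and 1 h (r 0.12 to 0.43). A fit that blocks on that number is therefore given beside the main fit for these contrasts. Named genes were the 9 members, divergent neighbours, up to 4 called genes per list, 2 paralogs, the 5 most alike and the 5 lowest other genes. The members and lists were chosen with earlier results of these data known. With 3 libraries a group, an exact permutation test of a single value cannot go below 0.1. Python 3.11.15 with pandas 2.3.3 and matplotlib 3.10.9 made the summaries and plots, and annotation came from GENCODE release 44 on GRCh37.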

Additional observations from a re-analysis of the deposited data

How the results depend on the processing

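The 24 h log2 fold change of each of the 9 genes stayed negative under every alternative run; the widest range was that of GPCPD1, from -2.92 (models above 0.5 FPKM in at least 3 libraries only) to -1.53 (pseudocount of 1). Rescaling to TPM over all transcripts put the median of all genes at -0.56 at 1 h, -0.94 at 2 h and -0.78 at 24 h, and its 24 h calls split into 209 higher and 3995 lower, against 1462 and 1586. Early counts of called genes, of 1, 3 and 1 for 1 h and 2 h against 0 h and 2 h against 1 h, became 0, 0 and 0 without the filter, 28, 540 and 22 with TPM over all transcripts (19, 526 and 11 of them lower), 0, 5 and 0 with TPM once transcripts under 300 bases were left out, and 0, 0 and 0 in fits on the 6 libraries of the contrast. For 2 h against 0 h the count was 6 with a pseudocount of 0.1 and 5 with the model filter. Leaving out 1 library gave 0 to 1, 0 to 6 (6 without the second 2 h library) and 0 to 1 genes, and 0 to 2 transcripts between 1 h and 2 h. With the replicate number as a block the counts were 0, 4 and 0, and 3106 genes at 24 h. The block changed no call of the 9 genes. Deviations of same-numbered libraries correlated above 0.1 in 2 of 3 pairs for 1 h against 0 h and in 1 of 3 for 24 h against 0 h, so these contrasts did not meet the rule used for pairing, although 10 of 12 libraries correlated best with their own number. Between 1 h and 2 h some small values changed sign. With TPM over all transcripts CHAC2 gave -0.33, PUSL1 -0.36 and ATAD3A -0.43, against a median of -0.38 over all genes on that scale. Leaving out 1 library gave ranges of -0.59 to -0.39 for TOE1, -0.33 to -0.077 for WDR73, 0.019 to 0.12 for PUSL1, -0.13 to 0.064 for GPCPD1, -0.094 to 0.28 for CHAC2, -0.11 to 0.16 for ATAD3A, -0.39 to 0.0625 for ATAD3B, -0.23 to 0.12 for TMEM201 and -0.20 to 0.022 for PIGW. The 24 h difference in the share of the leading 0 h model moved from -29.0 to -14.3 percentage points for GPCPD1 with the model filter, and with exact matches only from 8.10 to 2.58 for PUSL1 and from -19.5 to -26.8 for TMEM201. The cause of these shifts was not tested. The FPKM table gives no counts, so no counting error could be set beside models near or under 0.5 FPKM.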
